A study of Drosophila melanogaster with 4 samples.

Results

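Accessible chromatin was examined at the genes for the subunits of the proteasome in Drosophila melanogaster flight muscle. The members were the genes on the main chromosome arms (2L, 2R, 3L, 3R, 4 and X) whose symbol begins with Prosalpha, Prosbeta, Rpn or Rpt followed by a digit. The RefSeq table for Release 6 of the genome holds 48 such genes among 17684 on these arms, all of them protein-coding. By symbol alone, 16 carry the suffix T or R and are called germline-type paralogs here, and the other 32 are called general subunits. Open DNA was measured by ATAC-seq, a method based on insertion of sequencing adapters by a transposase, on nuclei from dissected thoracic muscle enriched for flight muscle. The animals were pharate adults, 96 hours after puparium formation at 25 °C, with at least 40 animals pooled per library. The controls were w[1118] flies, and the mutants carried Pgk[Delta.E2F] in the same w[1118] background, from line 12 only. In that allele an E2F binding site upstream of Pgk, the gene for phosphoglycerate kinase, is mutated. Each genotype has 2 libraries, called control 1 and 2 and mutant 1 and 2, and the labels do not say whether they came from separate cultures or days.

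The proteasome is the large protease that degrades ubiquitin-tagged proteins. Its barrel-shaped core stacks rings of alpha subunits, which gate the entrance, on rings of beta subunits, which hold the cutting sites. The regulatory cap is made of the Rpt subunits, ATPases that unfold the substrate, and the Rpn subunits, which bind ubiquitin chains, remove them and hold the cap together. These roles are known mostly from yeast and mammals. Several subunits have additional gene copies in Drosophila, many of which are known as testis-expressed forms. Nearly every cell uses the general subunits, and muscle depends on the proteasome for turnover of its contractile proteins.

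The authors' files are 1 peak list per library. On the main arms, controls 1 and 2 hold 29341 and 29923 peaks, whereas mutants 1 and 2 hold 25528 and 25985. The mutant mean was lower by 3875.5 peaks, more than the spread between replicates (control mean 29632 ± 412 SD, n = 2; mutant mean 25756.5 ± 323 SD, n = 2; two-sided exact permutation p = 0.33, as low as 2 against 2 libraries can give). With lists matched on the recovered background level the difference was -1685 peaks. A measure of depth, the background level recovered from the peak values, was 7.44 and 7.61 fragments for the controls but 4.62 and 5.26 for the mutants. By this measure the mutant libraries were shallower, and genotype and depth cannot be told apart in these lists. Mutant 1 stood apart from the other libraries: 13.0% of its peaks had their summit within 200 bp of an end of a protein-coding gene, against 18.8% and 16.1% in the controls and 17.8% in mutant 2. The 12 flight muscle marker genes examined, such as Act88F (flight muscle actin) and fln (flightin), all had peaks in all 4 libraries, against 44.6% of all genes. Their median span of 11329.5 bp, against 1710 bp for all genes, gives them far longer windows.

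A gene was counted as called in a library if at least 1 bp of a peak lay in its window, the gene span plus 500 bp on each side. Of the 32 general subunit genes, 22 (68.8%) were called in all 4 libraries, and each of the 32 was called in at least 1. Of all genes on the main arms, 44.6% were called in all 4 libraries and 71.2% in at least 1. Since long windows catch more peaks, protein-coding genes in the members' length range of 881 to 4500 bp were counted too, and 41.6% of these 7973 genes were called in all 4 libraries and 76.2% in at least 1. The general genes have a median span of 1390 bp, shorter than the median of 1878 bp in that comparison group. Of the 16 germline-type paralogs, with a median span of 1282 bp, 2 were called in all 4 libraries (12.5%) and 11 in at least 1 (68.8%). Members are genes and not replicates, so these counts describe the 4 libraries.

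**Figure D1:**
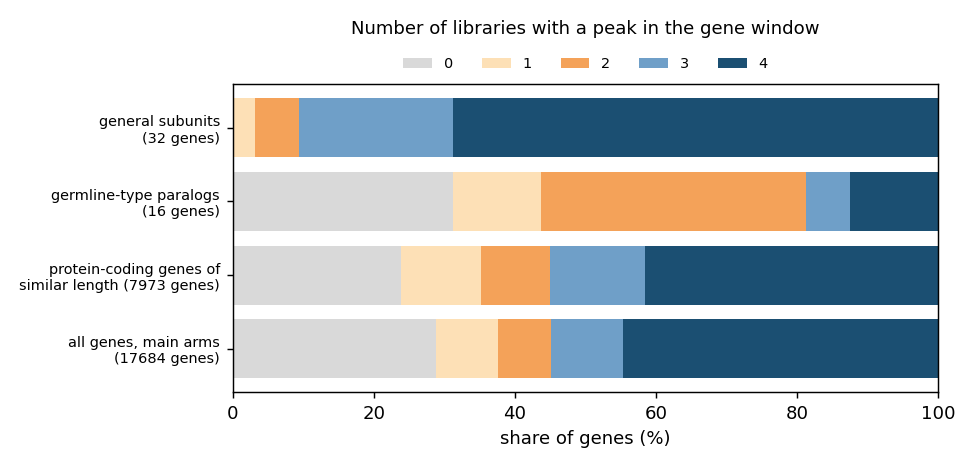
Share of genes (horizontal axis, %) by the number of libraries with a peak in the gene window (colours, 0 to 4), for 32 general subunits, 16 germline-type paralogs, 7973 protein-coding genes of the members' length range and all 17684 genes of the main arms. The darkest segment, all 4 libraries, takes 68.8% of the general subunits and 12.5% of the germline-type paralogs.

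All 4 libraries were called at 4 of 7 alpha ring genes, 5 of 7 beta ring genes, 4 of 6 ATPase genes and 9 of 12 Rpn genes. By library, 30 general genes were called in control 1, 30 in control 2, 23 in mutant 1 and 31 in mutant 2. Over all genes, the shares called were 60.1%, 61.3%, 56.0% and 55.6% in the same order. Mutant 2 had the most general subunit genes called and mutant 1 the fewest, while over all genes the mutants were close to each other.

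**Figure D2:**
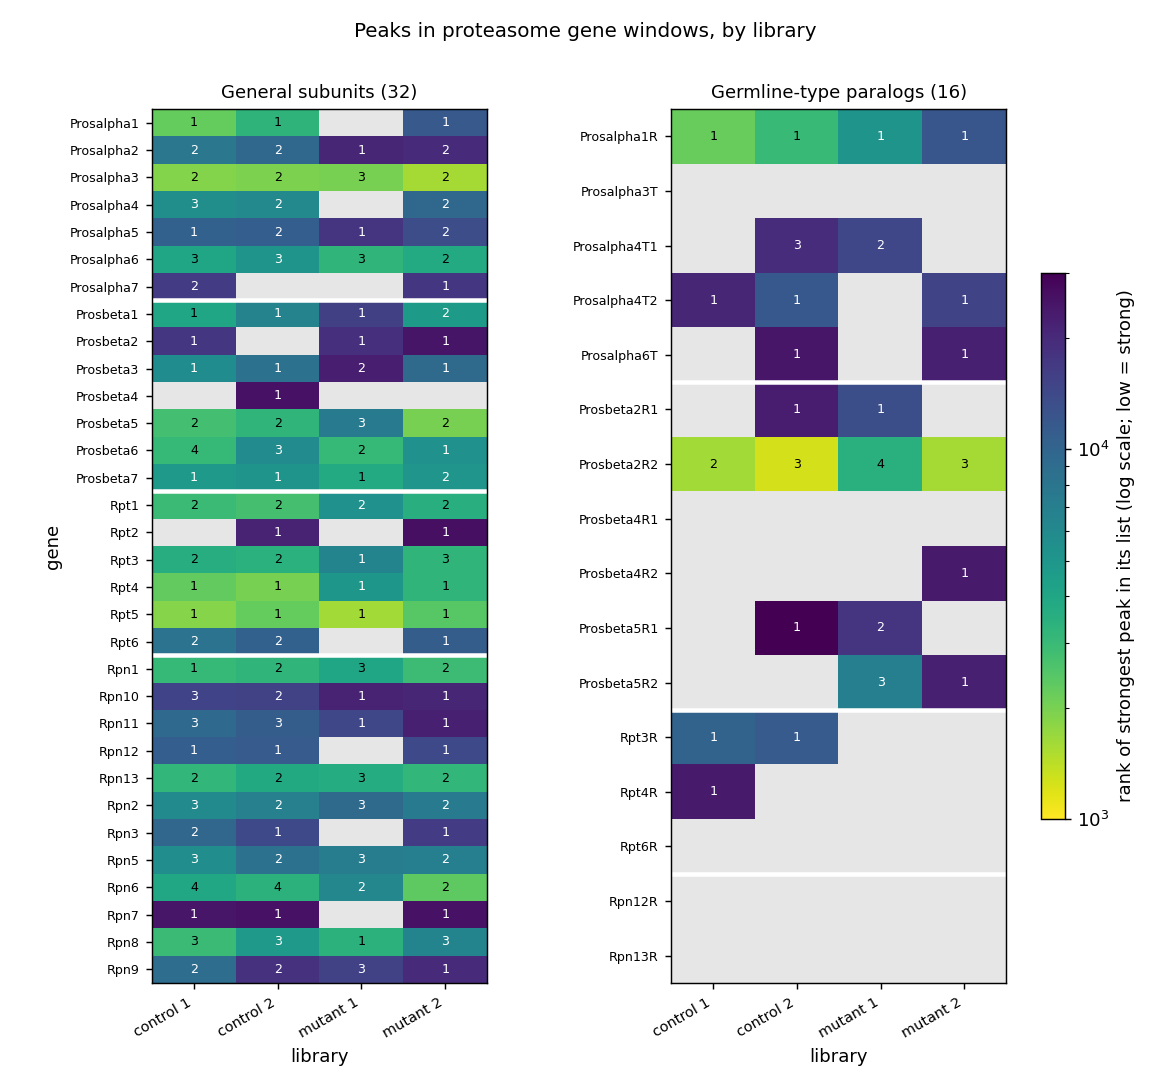
Peaks in the windows of the 48 proteasome genes (rows, grouped by alpha ring, beta ring, Rpt and Rpn) in the 4 libraries (columns). Numbers give the peaks per window, colour gives the rank of the strongest one in its list on a log scale, and grey marks windows without a peak. General subunits are called in most cells, with most gaps in mutant 1 (23 of 32 called), and among germline-type windows those of Prosalpha1R and Prosbeta2R2 alone are filled in all 4 columns.

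Peaks are described by their rank in the list of their library, ordered by the authors' −log10 p with rank 1 the strongest. For comparison between libraries, all lists were cut to the 25528 strongest peaks. The 5 general genes with the best mean rank were Prosalpha3, Rpt5, Rpt4, Rpn1 and Rpn13.

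Prosalpha3, an alpha ring subunit, had its strongest peak at rank 1880 and 1958 in controls 1 and 2, and at rank 2010 and 1573 in mutants 1 and 2. The genotypes overlapped, and all 4 peaks lay in the region 2R:20994815-20994926, across the low-coordinate end of the gene. The authors' fold enrichments there were 9.81 and 8.91 in the controls versus 7.67 and 9.58 in the mutants, from summit pileups of 197, 173, 72 and 117 fragments. The mean rank of Prosalpha3 was better than that of 75.7% of the 7652 genes ranked in all 4 libraries.

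Rpt5, an ATPase of the cap, ranked 1867 and 2238 in the controls versus 1606 and 2420 in the mutants. By rank its genotypes overlapped as well, with mutant 1 the best of the 4. By fold enrichment, 13.7 and 10.9 in the controls versus 9.50 and 10.1 in the mutants, both mutants were below both controls and mutant 1 was the lowest. The region, 3R:23752772-23752931, also overlaps the neighbouring gene RanBP3. Rpt4, another ATPase, ranked 2272 and 2016 in the controls versus 4988 and 3258 in the mutants, so that both mutants ranked below both controls. Its region, X:6291211-6291339, overlaps both Rpt4 and mldr, and the fold enrichments were 9.53 and 9.22 in the controls versus 4.80 and 7.46 in the mutants.

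Rpn1, a scaffold of the base of the cap, ranked 3085 and 3248 in the controls versus 4017 and 2917 in the mutants. Rpn13, a ubiquitin receptor, ranked 3165 and 3789 in the controls versus 3661 and 3164 in the mutants. For both genes the controls lay between the mutants or mixed with them. The Rpn1 region, 3L:19914915-19915089, touches no other gene, whereas that of Rpn13, 2R:13960555-13960685, lies 151 bp outside it and overlaps CtsL1.

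Among ranked genes the median rank of the general subunits was 5197 and 5917 in controls 1 and 2 (30 and 28 genes) and 6436 and 7078 in mutants 1 and 2 (23 and 30 genes). Over all ranked genes the medians were 5780.5 and 6090 in the controls versus 7291 and 6153 in the mutants. In mutant 2 the median of the general subunits was thus at a weaker rank than that of all genes, and in the other 3 libraries at a stronger one. Among protein-coding genes of the members' length range the medians were 6781 and 7398 in the controls versus 10095 and 7858 in the mutants, weaker than those of the general subunits in all 4 libraries. The range within the group was wide: in control 1 the strongest peak per gene went from rank 1867 at Rpt5 to rank 24282 at Rpn7.

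The catalytic subunits of the core differed among themselves. Prosbeta5, with the chymotrypsin-like site, ranked 2774 and 3251 in the controls versus 7272 and 2016 in the mutants, where mutant 1 was the weakest and mutant 2 the strongest. Its strongest peak in controls and mutant 2, in 2R:10821459-10821675, lies 281 bp outside the gene, on Lsm10. Mutant 1 was also called there, at rank 8663, but its strongest peak was the one at the opposite end of Prosbeta5. Prosbeta1, with the caspase-like site, ranked 4004 and 6586 in the controls versus 15758 and 4714 in the mutants. Mutant 1 again stood apart, with a peak inside the gene and none in the region 2R:16014761-16014935 at its high-coordinate end. Prosbeta2, with the trypsin-like site, was called in control 1 and both mutants but not in control 2. Its ranks of 17620 in control 1 and 18975 and 24609 in the mutants were all weak, and the peaks of control 1 and mutant 2 lay outside the gene, on or next to mRpL39, whereas that of mutant 1 lay inside it.

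The count depended on the window limit. A region at one end of Rpn2, a scaffold of the cap, lay 492 bp from the gene in control 1 (fold enrichment 6.88), just inside the limit. The peaks of control 2 and mutant 2 lay just outside it, at 504 and 517 bp (5.50 and 3.91), though all 4 libraries had other peaks in the Rpn2 window. The only peak of Rpt3 in mutant 1 was 478 bp away (4.68). Prosbeta4, a non-catalytic beta subunit, had peaks 524 bp away in control 1 and in mutant 2 (2.54 and 3.41), outside the limit, and was called in control 2 only, by a weak peak with a fold enrichment of 2.69. With 1000 bp on each side, 28 general genes were called in all 4 libraries (all genes, 51.2%), and with the gene span alone 16 (all genes, 34.3%).

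Of the 10 general genes not called everywhere, 7 were called in 3 libraries, 2 in 2 and 1 in 1. Mutant 1 was the missing library for 6 of those 7: Prosalpha1, Prosalpha4, Rpt6, Rpn3, Rpn7 and Rpn12. At 5 of these 6, mutant 1 had a peak outside the window but within 1000 bp of the gene. These peaks lay 983 bp from Prosalpha1 (fold enrichment 3.47), 661 bp from Prosalpha4 (13.9), and 643 and 903 bp from Rpn3 (5.44 and 7.0). Those of Rpn7 and Rpn12 lay 576 bp (3.96) and 821 bp (2.79) away. At Prosalpha4, Rpn3 and Rpn7 the other libraries also had peaks at similar distances outside the window. At Prosalpha4 their fold enrichments were 20.1 and 18.5 in the controls and 19.3 in mutant 2. There, these peaks are not the regions inside the window that mutant 1 lacked. With 1000 bp on each side Rpt6 was the one of the 6 still missing mutant 1 alone, and Prosbeta4 joined it, so the pattern depends on the window. At 500 bp the germline-type Prosalpha4T2 had the same pattern, which makes 7 of 48 members (14.6%), against 5.60% of all genes. Among protein-coding genes in the members' length range the share was 7.53%. Of all 1816 genes called in 3 libraries, 991 (54.6%) lacked a call in mutant 1 alone. Leaving out mutant 1, 28 of 32 general genes were called in the other 3 libraries. Over all 17684 genes, 7892 were called in all 4 libraries and the 991 lacked mutant 1 alone.

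In several of these windows the other libraries had clear peaks, on or shared with neighbouring genes. Prosalpha4, an alpha ring subunit, ranked 5590 and 6022 in the controls and 9481 in mutant 2, with summit pileups of 95, 77 and 39 fragments. That region lies 304 bp outside the gene, on kat80, and the peaks inside Prosalpha4 had fold enrichments of 2.57 to 4.20. Rpt6, an ATPase, ranked 8227 and 10366 in the controls and 10998 in mutant 2, with pileups of 59, 44 and 32. Its region also overlaps CG1801. The lowest pileup of any peak in mutant 1 was 14 fragments. Prosalpha1, the alpha ring subunit with the strongest control peaks of these 6, ranked 2229 and 3291 in the controls and 11528 in mutant 2. Its pileups were 147, 104 and 32 fragments, so that mutant 2 was also well below the controls there. That region lies 333 bp outside the gene, in CG18853.

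Rpn3 and Rpn12 are subunits of the lid, the part of the cap that carries the deubiquitinase. Rpn12 ranked 10842 and 11228 in the controls and 14149 in mutant 2, all in a region 209 bp outside the gene that overlaps UQCR-C2. Rpn3 ranked 9738 and 14209 in the controls and 16500 in mutant 2, from a peak inside the gene. Rpn7, also of the lid, had weak peaks with fold enrichments of 2.93 and 2.69 in the controls and 2.73 in mutant 2. The peaks of all libraries were also reduced to those that would still pass at the background level recovered for mutant 1. Each of the 6 genes then kept its calls in the other 3 libraries. For this, the summit values of peaks already called were scaled, with no reads drawn and no peaks called anew. Keeping a call therefore does not show that it would be found at that depth. Controls 1 and 2 still held 27684 and 27100 peaks at that level, more than the 25528 of mutant 1. In the lists cut to equal length, Rpn7 also lost its call in control 2. At the matched background level the number of general genes called in all 4 libraries was 22, as without it, against 44.1% of all genes.

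The other 3 general genes lacked more than 1 library or had scattered calls. Prosalpha7 was called in control 1 (rank 16373) and mutant 2 (rank 17425), by peaks at opposite ends of the gene. Rpt2 was called in control 2 and mutant 2 by a peak inside the gene, with fold enrichments of 2.87 and 2.3. Prosbeta4, described above, was called in control 2 alone.

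Mutant 1 differed in where its peaks lay in these windows. The windows of the general genes held 60 and 55 peaks in the controls, 43 in mutant 1 and 49 in mutant 2. The summit was within 200 bp of an end of a protein-coding gene for 61.7% and 58.2% of these peaks in controls 1 and 2 and for 63.3% in mutant 2, but for 39.5% (17 of 43) in mutant 1. Over whole lists mutant 1 was also the lowest, with the values given above. Joined across libraries, the peaks of the general windows formed 84 regions, of which 24 were called in all 4 libraries. Missing from mutant 1 alone were 14 regions, 10 of them centred within 200 bp of a coding gene end, and 11 regions were called in mutant 1 alone, 2 of them within that distance. The annotation used gives no strand, so a gene end is not told apart here as start or stop of the gene.

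**Figure D3:**
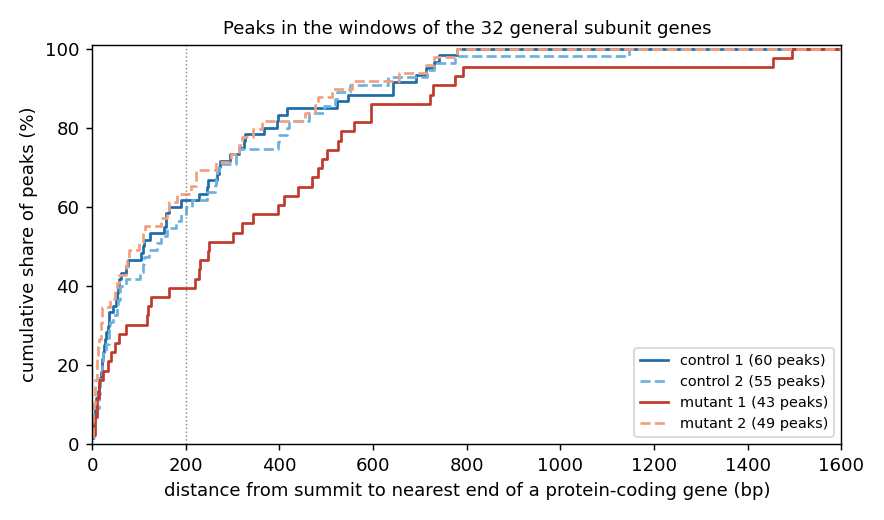
Cumulative share of the peaks in the windows of the 32 general genes (vertical axis, %) by distance from the summit to the nearest end of a protein-coding gene (horizontal axis, bp), 1 line per library, with the dotted line at 200 bp. At 200 bp the curve of mutant 1 stands at 39.5%, below 58.2% to 63.3% in the other 3 libraries.

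The germline-type paralogs had few calls in the muscle libraries. No peak was called in any library at Prosalpha3T, Prosbeta4R1, Rpn12R, Rpn13R and Rpt6R. The number called was 5 in control 1, 8 in control 2, 6 in mutant 1 and 6 in mutant 2, so the genotypes overlapped. As shares of the 16 these were 31.2%, 50%, 37.5% and 37.5%, each below the share of all genes called in that library, given above. Of the 11 with a call, 2 were called in 1 library, 6 in 2 libraries, 1 in 3 and 2 in all 4.

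Both paralogs called in all 4 libraries owed it to regions outside the gene. Prosbeta2R2 had the strongest germline-type peaks, at rank 1612 and 1243 in the controls versus 3446 and 1587 in the mutants, with fold enrichments of 15.97, 14.8, 7.29 and 13.1. The genotypes overlapped, with mutant 1 the weakest. This region, 3R:5217376-5217560, lies 191 bp from Prosbeta2R2 and overlaps cno (canoe, a cell junction protein), and a second region called in all 4 libraries lies on its other side, at CG1116. Inside Prosbeta2R2 a peak was called in control 2 and both mutants but not in control 1.

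Prosalpha1R ranked 2191 and 3027 in the controls versus 5135 and 12094 in the mutants, so that both controls ranked above both mutants. Its region, 2R:7832121-7832214, lies 350 bp from the gene and overlaps Atg10 and CG12822. The neighbouring general gene Prosalpha1 has its region at 2R:7829011-7829104, 333 bp from the gene and in CG18853. Both regions are 94 bp wide and sit at similar distances from their genes. The ranks of the 2 genes were alike in control 1 (2229 and 2191), control 2 (3291 and 3027) and mutant 2 (11528 and 12094), and in mutant 1 only the Prosalpha1R region was called. The genes are neighbouring copies, and how reads that fit both places were treated is not given in the sources used here, so the values of this pair are uncertain.

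Prosalpha4T2 was called inside the gene in both controls and mutant 2, at rank 20756, 11768 and 14896, and its window touches no other gene. Prosalpha4T1 was called in control 2 (rank 19465) and mutant 1 (rank 14551) by peaks that all overlap CG42322. Prosalpha6T, Prosbeta2R1 and Prosbeta5R1 were also called inside the gene, each in 2 libraries, with fold enrichments of 2.90 and 3.19, 3.02 and 4.09, and 2.32 and 3.56. The 2 Prosalpha6T calls were separate regions, 2L:13232207-13232336 in control 2 and 2L:13232599-13232667 in mutant 2, each seen in 1 library. Prosbeta4R2 (fold enrichment 3.03 in mutant 2 alone, on Or23a) and Rpt4R (3.08 in control 1 alone, on CG5883) were called once each, outside the gene. When only peaks with a summit nearer to the member than to any other gene were counted, 0 germline-type and 15 general genes were called in all 4 libraries, and 7 germline-type genes in at least 1. The shares of all genes under this rule are not given here.

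Calls at 3 germline-type paralogs, Prosalpha4T1, Prosbeta2R1 and Prosbeta5R1, came from control 2 and mutant 1 alone (18.8% of the 16), a pattern seen at 2.09% of all genes and at 0 of the 32 general subunits. The totals of some marker lists were also highest in this pair of libraries, and others were not. The windows of 5 genes listed as neuron markers held 10 and 23 peaks in controls 1 and 2 versus 19 and 9 in mutants 1 and 2. Those of 3 fat body markers held 3, 6, 7 and 3. Most of the difference in the neuron list came from brp (5, 12, 11 and 4 peaks), and nSyb held 1, 3, 2 and 0. In contrast, elav held 2, 3, 3 and 4 and Syb 2, 3, 2 and 1. Whether Syb is specific to neurons was not tested. Syt1 (synaptotagmin) and Fbp1 (a fat body protein) were called in control 2 and mutant 1 only. Among the other fat body markers, Lsp2 held 3, 4, 4 and 3 peaks, and Fbp2 was called in mutant 1 only. Peaks at the 16 testis and germline markers found in the annotation numbered 11 and 15 in the controls versus 9 and 14 in the mutants. Of these markers can, comr, dj, ProtA and ProtB had no peak in any library, and 5 were called in all 4, among them vas and topi. Of 4 blood cell markers Hml and NimC1 had no peak in any library, whereas Pxn and srp were called in all 4 libraries. The windows of the 4 markers held 9 and 13 peaks in the controls, with 12 and 16 in the mutants. The tendon marker sr was called in all 4 libraries. The part of other cell types in the calls was not tested. In bulk tissue, fewer cells of a type and less open chromatin per cell cannot be told apart.

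Paired with their general counterparts, the germline-type paralogs were called in fewer libraries in 12 of 16 pairs, in the same number in 2 and in more in 2. The 16 pairs share 12 general genes, so they are not independent. The widest contrasts were Prosalpha3 and Rpn13, each with 4 libraries against 0 for Prosalpha3T and Rpn13R. Next, with a difference of 3 libraries, came Rpn12 and Rpt6 (3 against 0 for Rpn12R and Rpt6R) and Rpt4 (4 against 1 for Rpt4R). The 2 pairs in the opposite direction were Prosalpha1R over Prosalpha1 and Prosbeta2R2 over Prosbeta2, both with regions that lie outside the paralog. The tied pairs were Prosalpha4T2 with Prosalpha4, both in 3 libraries, and Prosbeta4R2 with Prosbeta4, both in 1.

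Between the genotypes, few members differed in presence. The number of members called was 35 and 38 in the controls versus 29 and 37 in the mutants (means 36.5 ± 2.12 and 33 ± 5.66 SD, n = 2), so the groups overlapped and the difference of -3.5 members was smaller than the spread of the mutants. Over all 17684 genes, 10626 and 10846 were called in the controls versus 9904 and 9841 in the mutants, lower in both mutants. Without mutant 1 the difference in members turned to 0.5. A single member, Rpt3R, was called in both controls and neither mutant, or 1 of 48 against 2.31% of all genes. A single member, Prosbeta5R2, was called in both mutants and neither control, against 0.707% of all genes. Both are germline-type, and no general gene followed either pattern over its whole window. By region, 7 regions in 5 general genes were called in both controls and neither mutant, and 1 in both mutants and neither control. The same count of regions over all genes is not given here.

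Rpt3R, a paralog of the ATPase Rpt3, ranked 10163 and 11368 in the controls, with pileups of 50 and 41 fragments. Its region, 3R:9754657-9754743, overlaps both the low-coordinate end of Rpt3R and the neighbouring gene Tti1, whose own span is nearer to the summits. Prosbeta5R2, a paralog of the catalytic Prosbeta5, ranked 6867 in mutant 1 and 22258 in mutant 2, with fold enrichments of 5.69 and 3.19. The region, 2L:17990830-17991160, lies inside the gene, and no other gene is in its window. It joins peaks that only partly overlap. The strongest peak of mutant 1 spans 2L:17990830-17990925 with its summit at 17990868. That of mutant 2 spans 2L:17990917-17991048 with its summit at 17991039, so the mutants do not share a summit. The summit pileups were 31 and 19 fragments, and with −log10 q of at least 5 this gene was no longer mutant-only.

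In the equal-length lists 24 members were ranked in all 4 libraries, of which 22 were general. The strongest peak ranked better in both controls than in both mutants at 9 of these 24 (37.5%), against 31.0% of the 7652 genes ranked in all 4 libraries. It ranked better in both mutants at 1 of 24 (4.17%), against 10.4% of those genes. Both shares are near those of all genes, and the exact permutation test over libraries cannot go below p = 0.33 for any of them, so 0 of 7652 genes fell under an unadjusted p of 0.05. The mean rank in the mutants was numerically weaker for 17 of the 24 members and stronger for 7, close to the split over all ranked genes (5318 weaker, 2333 stronger). The median shift was 1482.5 ranks towards the weak end, against 402.5 for all ranked genes. For ranked protein-coding genes in the members' length range it was 736.5.

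**Figure D4:**
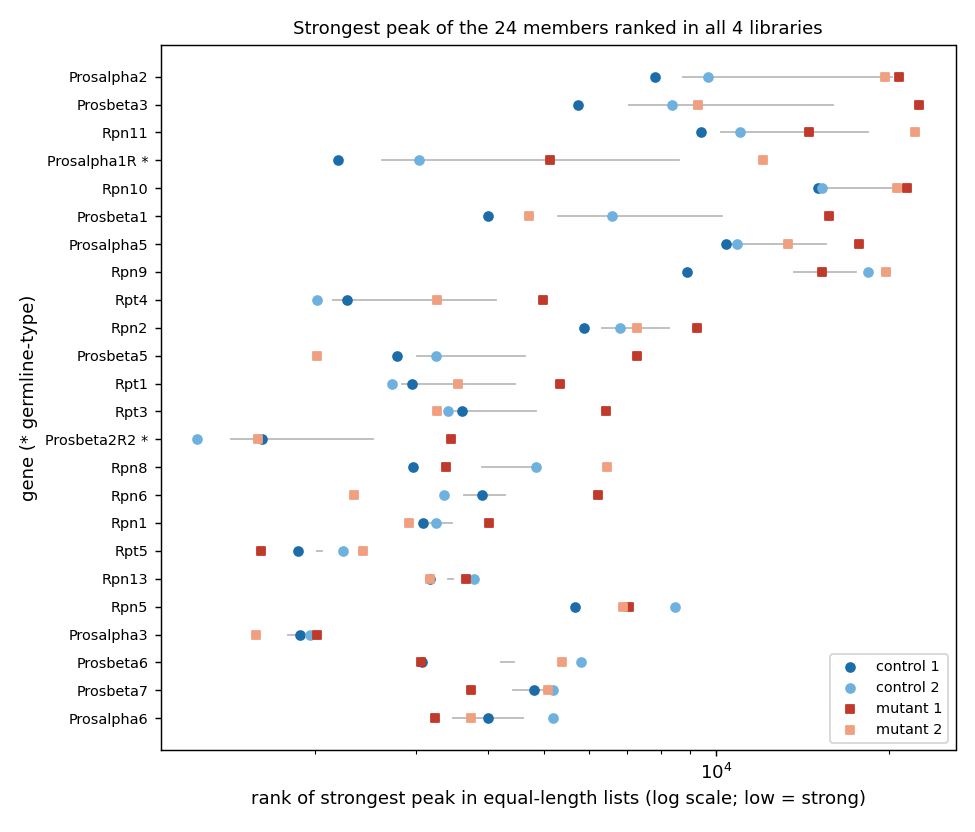
Rank of the strongest peak in lists cut to the 25528 strongest peaks (horizontal axis, log scale, low is strong) for the 24 members ranked in all 4 libraries (rows), with 1 point per library and a grey line from the control mean to the mutant mean. Prosalpha2, at the top, has the largest shift towards weaker ranks in the mutants, and at Prosalpha6, at the bottom, both mutants rank above both controls, though not by fold enrichment.

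The 3 members with the widest gap between controls and mutants were Prosalpha2, Rpn10 and Rpn11, all stronger in the controls. Prosalpha2, an alpha ring subunit, ranked 7819 and 9690 in the controls versus 20855 and 19692 in the mutants. The controls and mutant 2 had their peak at the low-coordinate end, in 3R:12431281-12431376, with fold enrichments of 6.79, 5.11 and 3.37, whereas mutant 1 had no peak there and its strongest peak lay inside the gene.

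Rpn10, a ubiquitin receptor of the cap, ranked 15036 and 15322 in the controls versus 21567 and 20709 in the mutants. Rpn11, the deubiquitinase that removes ubiquitin chains at the entrance, ranked 9424 and 10998 in the controls versus 14551 and 22258 in the mutants. At both genes the control peak lay at a gene end, in 3L:21537007-21537119 and 2L:5059762-5059862, and neither mutant was called there. The mutant peaks lay inside the gene, in regions that the controls shared. At Rpn11 the end region had fold enrichments of 6.4 and 4.99 in the controls.

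A difference in rank can thus compare different regions of 1 gene. Of the 8 general genes with better ranks in both controls, 2 (Rpt1 and Rpt4) had their strongest peak in the same region in all 4 libraries. Rpt1, an ATPase, ranked 2943 and 2718 in the controls versus 5350 and 3551 in the mutants. Its pileups were 131, 121, 42 and 67 fragments at 2R:7653914-7654042, which also overlaps CG17985. The others were Prosalpha2, Prosalpha5, Prosbeta3, Rpn2, Rpn10 and Rpn11, and at Prosalpha2, Prosalpha5 and Prosbeta3 it was mutant 1 alone whose strongest peak lay elsewhere, at Rpn2 mutant 2 alone. Prosalpha5, an alpha ring subunit, ranked 10410 and 10866 in the controls versus 17792 and 13355 in the mutants. Prosbeta3, a non-catalytic beta subunit, ranked 5738 and 8364 in the controls versus 22633 and 9307 in the mutants, with mutant 1 far below the other 3 libraries. The single member with a better rank in both mutants was Prosalpha6, an alpha ring subunit. It ranked 4007 and 5191 in the controls versus 3235 and 3729 in the mutants, at 2L:10221286-10221418 across its low-coordinate end in every library. The fold enrichments there were 11.7 and 8.71 in the controls versus 8.18 and 9.90 in the mutants, which overlap, with mutant 1 the lowest, and no member was ranked better in both mutants when ranks were taken as a share of each full list.

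The other 13 general genes ranked in all 4 libraries had overlapping genotypes. Besides Prosalpha3, Rpt5, Rpn1 and Rpn13, they were Rpt3, Prosbeta1, Prosbeta5, Prosbeta6, Prosbeta7, Rpn5, Rpn6, Rpn8 and Rpn9. Rpn6, which braces the lid against the core, ranked 3904 and 3354 in the controls versus 6233 and 2336 in the mutants. Rpn8, the partner of Rpn11, had the widest of all the members' strongest peaks in the controls, 468 and 451 bp, while its peaks measured 140 and 156 bp in the mutants. That region, 2R:24402299-24402767, overlaps Rpn8 and Slik. Prosbeta7 had its peak inside the gene in all 4 libraries, in 3R:5358128-5358268, ranking 4804 and 5190 in the controls versus 3740 and 5089 in the mutants.

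Many member peaks are shared with neighbouring genes. The summit of the strongest peak also lay in the window of another gene at 26 of 30 called general genes in control 1, 26 of 30 in control 2, 17 of 23 in mutant 1 and 23 of 31 in mutant 2. It was nearer to another gene than to the member at 15, 15, 9 and 13 of them. Among general genes whose strongest peak lay in no other window in any library were Rpn1, Rpn11, Prosbeta7 and Prosalpha5.

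Genes that act with the proteasome were counted in the same way. Of 17 such genes matched in the annotation, 12 were called in all 4 libraries (against 44.6% of all genes), 0 were control-only and 0 were mutant-only. They have a median span of 2772 bp, longer than the members. Uba1, the ubiquitin-activating enzyme, ranked 88 and 110 in the controls versus 219 and 125 in the mutants, stronger than every proteasome subunit in each library. TER94, the ATPase that extracts ubiquitinated proteins, ranked 686 and 512 in the controls versus 1388 and 399 in the mutants. Pomp, which helps assemble the core, ranked 3665 and 3901 in the controls versus 6070 and 4831 in the mutants. At Uba1 and Pomp both mutants ranked below both controls, and at TER94 the genotypes overlapped.

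The regulators of proteasome genes were called throughout. The gene cnc, for the transcription factor known to drive proteasome gene expression, held 15 and 18 peaks in the controls versus 14 and 17 in the mutants. Its span of 41132 bp, against a median of 1710 bp for all genes, gives cnc a far longer window. Its partner maf-S held 2, 2, 1 and 2 peaks. The 5 related genes not called everywhere were Usp14 and Rad23, missing in mutant 1 only, REG, called in control 1 and mutant 1 (ranks 15792 and 13177), PI31, called in mutant 1 only (rank 17412), and ntc, called in control 1 only (rank 8135). Usp14 ranked 5022 and 8587 in the controls and 5325 in mutant 2, and Rad23 ranked 3934, 4328 and 5684 in the same libraries. Usp14 is a deubiquitinase of the cap, Rad23 a shuttle for ubiquitinated proteins, and REG and PI31 are proteasome regulators. Without mutant 1, 14 of the 17 were called in the other 3 libraries. Over all 17684 genes, 7892 were called in all 4 libraries and 991 more lacked mutant 1 alone.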

How the data were processed

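The members and gene lists were chosen with earlier results of these data known. The deposited files are narrowPeak lists, 1 per library, so peaks were called per library and replicates were not pooled. The submitters' processing notes name MACS2 2.2.7.1, Bowtie2 2.4.1, cutadapt 2.3, Picard and build BDGP6, with no settings. Treatment of duplicates and any shift for the transposase cut are not given in the sources used here, and such a shift would move peak borders by a few bases. The fold enrichment (a ratio), the −log10 p and −log10 q and the score are the authors' own, relative to the background of that library, and the score was not used. No deposited peak has a −log10 q under 2. Further deposited columns give peak positions and the summit, printed here counted from 1.

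Gene spans came from the RefSeq table of Release 6 plus ISO1 MT, which gives no strand, so the planned window around gene starts used both gene ends. No sequence was available. Summit pileup and local background were solved from fold enrichment and −log10 p under a Poisson model (pseudocount 1 in the ratio) for −log10 p up to 250, which covered 98.7% to 99.8% of each list, with a largest misfit of 0.000896. The most frequent background was taken as relative depth. The pseudocount lowers the fold enrichment more where the background is low, as in the mutant libraries, so orders of fold enrichment between genotypes carry this difference. The functions were tested on simulated data. Pileups without molecular identifiers are not independent molecules.

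Libraries were compared by exact permutation tests where a test was made. Members are named by a fixed rule: germline-type genes with a call, general genes lacking a call, the 5 best mean ranks, the 3 widest gaps per direction, general counterparts of paralogs, and related genes lacking a call. Members, related genes and markers named outside that rule were chosen after their values were seen. Of 18 related names, 17 matched, as did 16 of 17 testis and germline markers. Software was Python 3.11.15, pandas 2.3.3, numpy 2.4.6, scipy 1.17.1 and matplotlib 3.10.9. Equal numbers did not pair the libraries. The alternatives are given in the closing section.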

Additional observations from a re-analysis of the deposited data

How the results depend on the processing

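The scaling to 1 recovered background level and the restriction to peaks nearest to the member were chosen after seeing the data. Among 108 alternative values, 89 stayed near the reported one (for counts, within 1.5 times), 18 moved and 1 reversed. The replicate block values among them equal the reported ones by design. Germline-type genes called in all 4 libraries fell from 2 to 0 with the gene span alone and with peaks nearest to the member, where those called in at least 1 library were 7; the regions behind the 2 calls lie outside the genes. Members called in both controls and neither mutant were 3 within 500 bp of either gene end. Members called in both mutants and neither control were 0 with −log10 q of at least 5. Members ranked better in both mutants were 3 when ranked by fold enrichment and 0 by share of each full list. The cause of these shifts was not tested. The difference in members called was 0.5 without mutant 1, which by itself had the fewest.

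With 1 library left out in turn, general genes called in all remaining libraries ranged from 22 to 28, germline-type genes from 2 to 3 and from 10 to 11 in at least 1 library, and related genes from 12 to 14. Control-only members ranged from 1 to 8, the highest without mutant 2, and mutant-only members from 1 to 2. Without mutant 2, control-only takes in every gene called in both controls but not in mutant 1. Over all genes, 408 of these were called in neither mutant and 991 were also called in mutant 2. For the other counts of members in this section the shares of all genes are not given here. The difference in members called ranged from -7.5 to 0.5. Members ranked better in the mutants ranged from 1 to 7, the highest without mutant 1, and in the controls from 10 to 17, also highest without mutant 1. A genotype with 1 library left sets these counts by itself. Main arm peaks differed by -4166.5 to -3584.5, and by -1685 with lists matched on the recovered background level.

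A fit with the replicate block gave differences of -3875.5 peaks (exact sign-flip p = 0.5, the smallest that 2 pairs allow) and -3.5 members. Both equal those without it by design, since each block holds 1 library per genotype. Over 17684 genes same-numbered libraries deviated from their genotype means in presence with a correlation of -0.132, which does not pair them.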
